A study of Mus musculus with 8 samples.

Results

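The genes of purine, pyrimidine and deoxynucleotide (dNTP) synthesis were examined as a set of 38 gene symbols. They were chosen by name for their place in de novo synthesis, salvage or dNTP supply. All 38 were among the 23361 gene rows of the expression table. De novo synthesis builds the purine ring on phosphoribosyl pyrophosphate (PRPP) and the pyrimidine ring from carbamoyl phosphate and aspartate, while salvage recovers free bases and nucleosides. Ribonucleotide reductase then turns ribonucleotides into deoxynucleotides, and a further set of enzymes makes thymidylate and keeps the dNTP pools in balance. Resting T cells hold small nucleotide pools and rely largely on salvage, whereas activated T cells switch on de novo synthesis and dNTP supply as they divide.

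Expression was measured by RNA sequencing in mouse induced regulatory T cells (iTreg), in 4 libraries of Nrp-1+ iTreg and 4 of Nrp-1- iTreg. Both groups came from naive CD4+ T cells, sorted as CD44low CD62Lhigh from Foxp3-RFP reporter mice whose genotype is labelled WT, and the age of the mice, absent from the labels, is that of young adults in the methods of the study. Both received the same treatment: anti-CD3/CD28 microbeads, IL-2 at 50 U/ml and TGF-β at 2 ng/ml for 3 days, although the time label of every library reads day 5. Viable CD4+ Foxp3-RFP+ cells were sorted and then divided by surface neuropilin-1 (Nrp-1), a co-receptor found on many regulatory T cells. The labels give the Nrp-1 gate as the one difference between the groups, and both consist of in vitro induced cells that had turned on the Foxp3 reporter.

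Values were given as FPKM, the fragments of a gene scaled to its exon length and to the mapped fragments of the library, so that levels can be set side by side between genes. Nrp1 itself stood at 21.5 ± 0.709 FPKM in Nrp-1+ iTreg, as against 4.95 ± 0.262 FPKM for Nrp-1- iTreg (mean ± SD, n = 4 each, as throughout). Relative depth, estimated from the steps between the lowest values, spanned 0.994 to 1.22 in Nrp-1+ iTreg and 0.810 to 1.24 in Nrp-1- iTreg, and short RNA genes held between 1.77% and 43.9% of a library's summed FPKM. Of 8 T cell and Treg markers, 7 were in the table and all 7 were expressed. Foxp3 (116 against 109 FPKM), Il2ra (266 against 228) and Ikzf2 (2.56 against 1.86) were higher in Nrp-1+ iTreg by limma, Ctla4 (144 against 160.0) and Cd3g (444 against 479) were lower, and Cd3e and Cd4 did not pass. Of the markers of other cells, Ms4a1 and Pax5 (B cells) were listed at 0 in every library, and Cd8a was at 0.0571 against 0.0474 FPKM. The summed level of 5 B cell genes, mostly Cd79b (5.09 ± 0.212 against 4.58 ± 0.762 FPKM, did not pass), was 5.21 to 5.91 FPKM in Nrp-1+ iTreg and 4.01 to 5.80 in Nrp-1- iTreg. Summed over the 5 myeloid genes in the table, of 6 listed, it was 6.44 to 7.17 against 5.38 to 6.20 FPKM, with Csf1r and Cd14 at 0 in all Nrp-1+ iTreg libraries. Most of that sum was Itgam, which was higher in Nrp-1+ iTreg (6.70 ± 0.252 against 5.56 ± 0.154 FPKM, log2 fold change 0.23, adjusted p = 0.00136 by limma). The 4 NK cell genes summed to 0.751 to 1.07 against 0.464 to 0.808 FPKM. The 2 CD8 genes summed to 7.10 to 8.78 against 9.33 to 11.3 FPKM, mostly from Cd8b1. Cd8b1 was lower in Nrp-1+ iTreg (7.86 ± 0.742 against 10.0 ± 0.935 FPKM, log2 fold change -0.31, adjusted p = 0.0119 by limma). The 4 erythroid genes in the table, of 5 listed, summed to 5.51 to 8.05 against 2.04 to 3.34 FPKM, mostly from Hba-a1. The part of these other cells in the results that follow was not tested.

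Of the 38 genes, 36 passed a filter of a mean of at least 1 FPKM and were tested, and Adssl1 and Dctd stayed under it. In Nrp-1+ iTreg, 19 of the 36 were higher than in Nrp-1- iTreg (52.8%) and 5 were lower (13.9%), by limma with a Benjamini-Hochberg adjusted p under 0.05. The count of lower genes was 3 when any of 5 libraries was left out (Nrp-1+ iTreg replicates 1, 2 and 4 and Nrp-1- iTreg replicates 2 and 4), and also 3 without the filter. Over all 10467 genes tested, 20.9% were called higher and 20.0% lower. The remaining 12 did not pass. A log2 fold change of at least 0.5 upward was reached by 7 of the 36 (19.4%), beside 5.34% of all genes tested. The 4 Nrp-1+ iTreg libraries lay above all 4 Nrp-1- iTreg libraries for 20 of the 36 and below them for 3, beside 20.2% and 19.3% of all genes tested. The median log2 fold change of the 36 was 0.14, and that of all genes tested was -0.016.

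The larger differences lay in 2 of the role groups. All 7 with a log2 fold change of at least 0.5 belonged to ribonucleotide reductase or to the enzymes of thymidylate and dNTP supply, where 8 of 10 tested genes were higher and 2 lower, with a median log2 fold change of 0.63. Among the other 26 genes, those of ring synthesis, PRPP, folate, kinases and salvage, 11 were higher, 3 lower and 12 did not pass, with a median of 0.085. The shares were 80% higher and 20% lower in the first set, and 42.3% and 11.5% in the second. Over all genes tested they were 20.9% and 20.0%. In these bulk samples a larger share of cells that express a gene and more of its RNA per cell cannot be told apart. For 23 of the 36, the exact two-sided permutation test of mean FPKM gave 0.029, which is the smallest p that 4 libraries against 4 allow. This restates the lack of overlap, which 20.2% (higher) and 19.3% (lower) of all genes tested showed too.

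**Figure D1:**
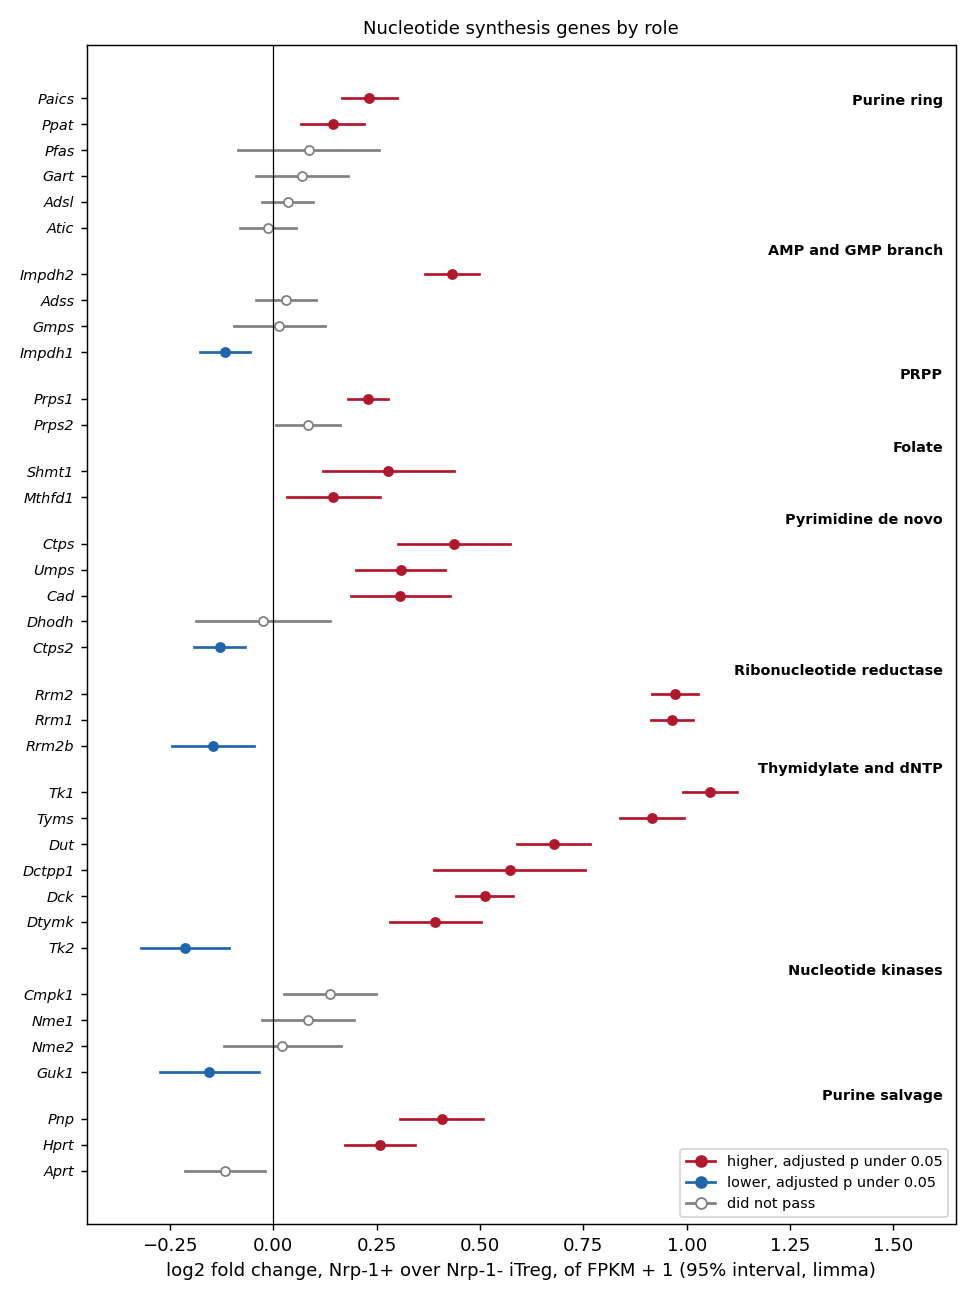
Log2 fold change of FPKM + 1 in Nrp-1+ over Nrp-1- iTreg (horizontal axis) for the 36 tested genes, grouped by role; points are limma estimates, lines 95% intervals, and colour gives the call at an adjusted p under 0.05. Rrm1, Rrm2, Tk1 and Tyms lie between 0.92 and 1.06, far to the right of the purine ring genes, which lie between -0.01 and 0.23.

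Ribonucleotide reductase makes all deoxynucleotides from ribonucleotides, and it is built from a large catalytic subunit, Rrm1, with either Rrm2 or Rrm2b as the small subunit. Rrm1 was at 98.8, 101, 96.5 and 95.4 FPKM in Nrp-1+ iTreg and at 49.0, 49.2, 50.4 and 50.0 FPKM in Nrp-1- iTreg. Rrm2, the small subunit of dividing cells, was at 211, 208, 219 and 206 FPKM against 108, 105, 109 and 106 FPKM. For both subunits every Nrp-1+ iTreg library was far above every Nrp-1- iTreg library, and the libraries of a group lay close together. Rrm1 was 97.1% higher in mean FPKM, with a log2 fold change of 0.96 (SE 0.02, adjusted p = 1.6e-07 by limma). Rrm2 was also 97.1% higher, with a log2 fold change of 0.97 (SE 0.02, adjusted p = 1.63e-07). By log2 fold change they stood 84th and 81st among the 10467 genes tested.

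The alternative small subunit moved the other way. Rrm2b, which p53 induces and which supplies dNTPs for DNA repair and for mitochondrial DNA in cells that are not dividing, was at 6.23, 6.16, 6.74 and 6.15 FPKM in Nrp-1+ iTreg and at 6.71, 7.45, 6.90 and 7.32 FPKM in Nrp-1- iTreg. The third replicate of Nrp-1+ iTreg lay just above replicate 1 of Nrp-1- iTreg, so the groups overlapped. The mean fell by 10.9%, and the log2 fold change was -0.14 (SE 0.04, adjusted p = 0.0281 by limma, permutation p = 0.0571 by the exact test). This call was lost when any of 5 libraries was left out (Nrp-1+ iTreg replicates 1, 2 and 4 and Nrp-1- iTreg replicates 2 and 4), with adjusted p from 0.0643 to 0.0726, and also without the filter on low values. It was lost too with same-numbered libraries fitted as blocks (adjusted p = 0.0777 by limma).

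Thymidylate is the nucleotide that DNA alone requires, and it is reached by 2 routes. Tyms, thymidylate synthase, methylates dUMP. It was at 21.4, 21.5, 20.6 and 20.5 FPKM in Nrp-1+ iTreg and at 10.2, 10.4, 10.7 and 11.3 FPKM in Nrp-1- iTreg. Tk1, the cytosolic thymidine kinase that salvages thymidine in S phase, was at 59.4, 58.7, 60.7 and 61.9 FPKM against 28.0, 27.9, 29.8 and 28.0 FPKM. Both routes were thus higher in all 4 Nrp-1+ iTreg libraries, with a wide gap between the groups. Tyms was 96.9% higher (log2 fold change 0.92, SE 0.03, adjusted p = 4.41e-07). Tk1 was 112% higher, with the largest log2 fold change of the 36 genes (1.06, SE 0.03, adjusted p = 1.96e-07), 62nd among all genes tested. Replicate 3 had the highest Tk1 value of Nrp-1- iTreg, at 29.8 FPKM, and the call held without that library.

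The enzymes around thymidylate moved in the same direction by less. Dut, the dUTPase that yields dUMP and keeps uracil out of DNA, was at 51.8, 51.6, 53.0 and 50.1 FPKM in Nrp-1+ iTreg and at 29.9, 31.8, 32.0 and 34.0 FPKM in Nrp-1- iTreg (log2 fold change 0.68, SE 0.04, adjusted p = 4.19e-06). Dctpp1, which hydrolyses dCTP and damaged dCTP analogues, was at 46.7, 42.2, 47.7 and 43.6 FPKM against 27.3, 27.3, 31.0 and 34.7 FPKM (log2 fold change 0.57, SE 0.08, adjusted p = 0.000734). Dck, the deoxycytidine kinase of lymphocyte salvage, was at 59.1, 60.9, 62.6 and 58.1 FPKM against 43.5, 41.6, 41.8 and 40.7 FPKM (log2 fold change 0.51, SE 0.03, adjusted p = 5.19e-06). The groups did not overlap for any of these genes. Dtymk, which phosphorylates dTMP and so serves both routes to thymidylate, rose by less: 61.6 ± 1.70 against 46.7 ± 3.19 FPKM, a log2 fold change of 0.39 (SE 0.05, adjusted p = 0.000356).

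Of the 7 thymidylate and dNTP genes tested, 6 were thus higher and 1, the mitochondrial thymidine kinase, was lower. Tk2, which phosphorylates thymidine and deoxycytidine inside mitochondria, was at 18.3, 16.3, 17.4 and 17.6 FPKM in Nrp-1+ iTreg and at 21.7, 19.7, 19.2 and 20.8 FPKM in Nrp-1- iTreg. All Nrp-1+ iTreg libraries were lower, and the groups did not overlap. Its log2 fold change was -0.21 (SE 0.05, adjusted p = 0.0071 by limma), the lowest of the 36. Dctd, the deaminase that makes dUMP from dCMP, was under the filter in both groups, at 0.552 to 1.12 FPKM over the 8 libraries, and was not tested.

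**Figure D2:**
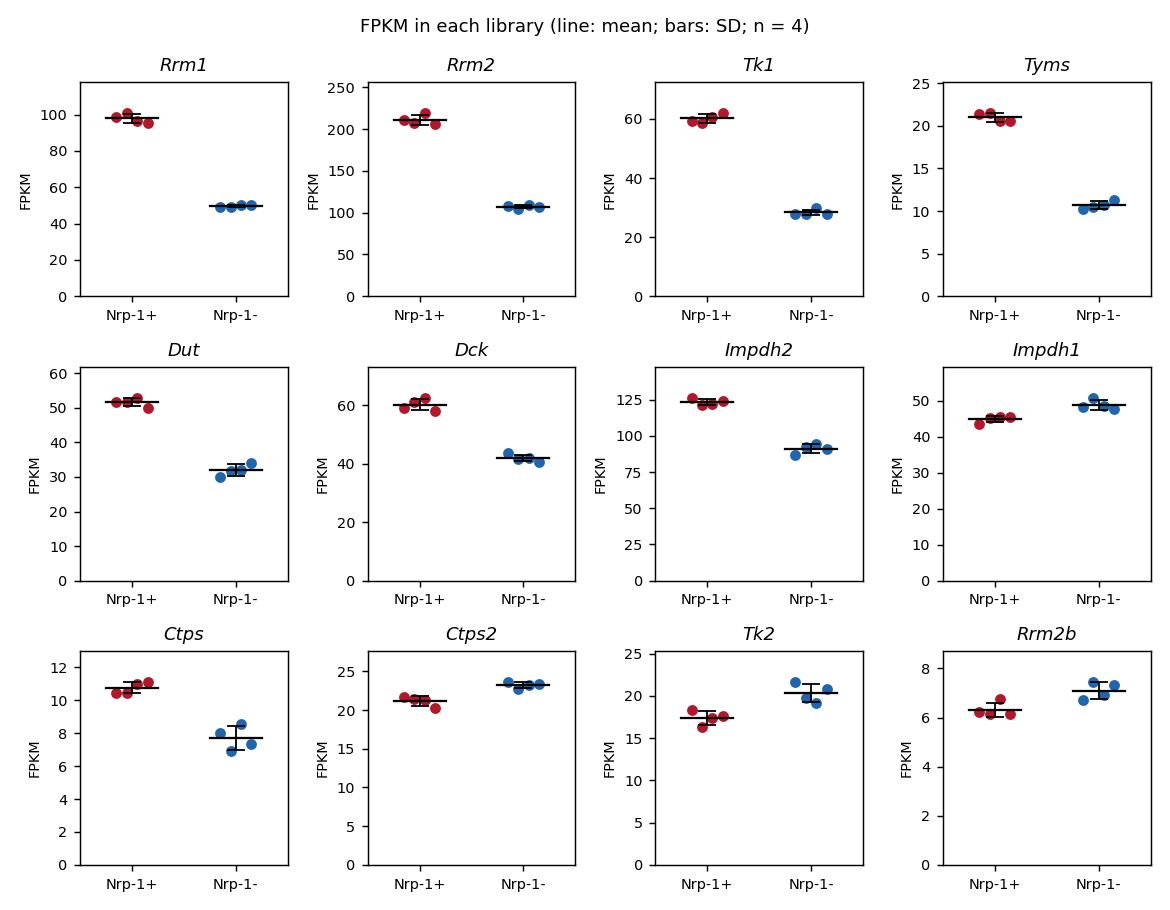
FPKM (vertical axis, from 0) of 12 nucleotide synthesis genes in each of the 4 Nrp-1+ (left, red) and 4 Nrp-1- (right, blue) iTreg libraries; points are libraries, lines group means and bars SD. Rrm1, Rrm2, Tk1 and Tyms are about 97% to 112% higher in Nrp-1+ iTreg, whereas Impdh1, Ctps2, Tk2 and Rrm2b differ by -7.88% to -14.4%.

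Genes of S phase and of G2 and mitosis differed between the groups as well. All 12 of 12 S phase genes, such as Pcna, Mcm5 and Cdc6, were higher in Nrp-1+ iTreg, with log2 fold changes of 0.61 to 1.00 and a median of 0.79, and their summed level was 1243 to 1262 FPKM against 744 to 752 FPKM. All 12 of 12 genes of G2 and mitosis, such as Top2a and Mki67, were higher too, with a median log2 fold change of 0.91 and summed levels of 1148 to 1197 against 619 to 625 FPKM. Rrm1, Rrm2 and Tyms, at 0.92 to 0.97, had log2 fold changes within the range of both lists, and Tk1, at 1.06, lay above it. Dut, at 0.68, lay within the range of the S phase genes, and Dctpp1 and Dck, at 0.57 and 0.51, lay under both lists. The part of a different share of cycling cells in the nucleotide gene results was not tested. Erythroid Hba-a1 was also higher, at 6.10 ± 0.958 against 2.52 ± 0.585 FPKM, and its part was not tested either.

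**Figure D3:**
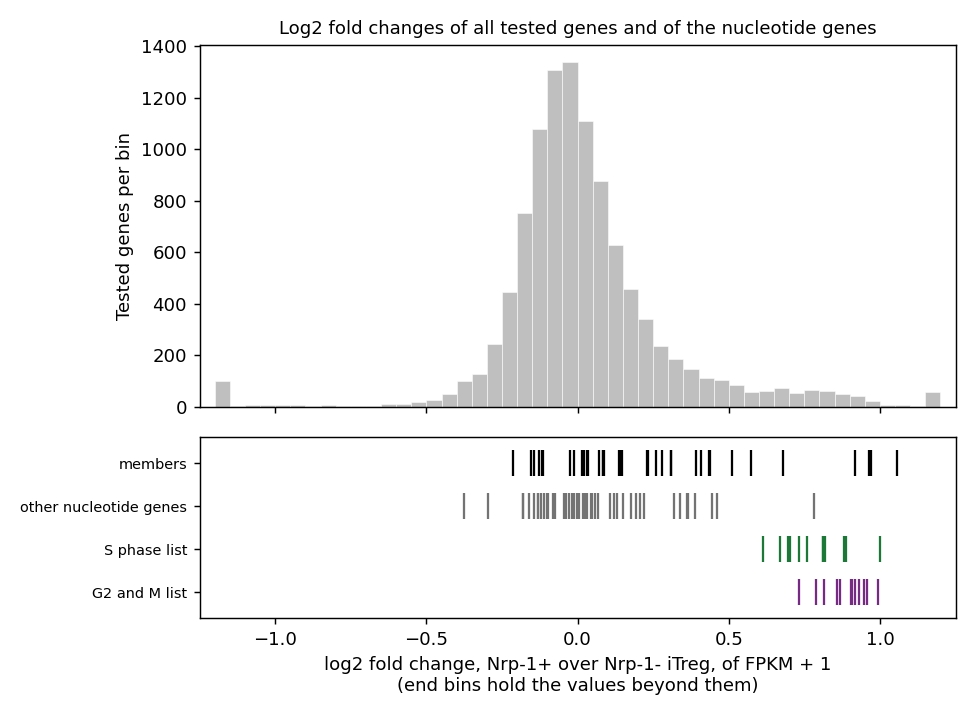
Top, the number of tested genes (vertical axis) by log2 fold change of FPKM + 1 in Nrp-1+ over Nrp-1- iTreg (horizontal axis), with values beyond the ends held in the end bins; bottom, a tick for each tested nucleotide synthesis gene (members), each other nucleotide gene and each gene of the S phase and of the G2 and M lists. The members spread from -0.21 to 1.06, Rrm1, Rrm2 and Tyms lie within the range of the S phase and G2 and M genes, and Tk1 lies above it.

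The sequence before the start sites of Rrm1 and Tyms is shown as a description, chosen by the annotation around them. Of the 38 genes, 35 had a promoter entry in RefSeq (GRCm38.p6) of 250 bases before and 50 after the start, and Dhodh, Pfas and Rrm2b had none. Of the 7 genes with a log2 fold change of at least 0.5, only Rrm1 and Tyms had an upstream window free of annotated exons, and for Tyms the bases inside the RefSeq gene span were left off. The Rrm1 window is chr7:102441445-102441694 (plus strand), and the capitals mark CCAAT-box words, whose first bases lie at -91 and -45 from the start. The Tyms window is chr5:30073646-30073875 (minus strand), and the capitals mark an E-box, CACGTG.
Rrm1: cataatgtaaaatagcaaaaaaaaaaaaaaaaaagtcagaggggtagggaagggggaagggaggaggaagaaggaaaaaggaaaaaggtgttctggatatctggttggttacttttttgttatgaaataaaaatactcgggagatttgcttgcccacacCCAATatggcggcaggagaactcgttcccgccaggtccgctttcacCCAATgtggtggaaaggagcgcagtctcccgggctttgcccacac
Tyms: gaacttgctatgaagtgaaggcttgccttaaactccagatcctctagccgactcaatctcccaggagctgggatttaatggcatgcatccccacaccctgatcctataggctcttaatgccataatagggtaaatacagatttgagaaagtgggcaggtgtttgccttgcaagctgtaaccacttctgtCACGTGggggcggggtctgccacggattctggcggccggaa

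Short words were counted on both strands of the 35 windows of 300 bases. The word CCAAT was in 15 of 35 (42.9%) and in 43.6% of the 7700 tested genes with a window, Rrm1, Rrm2 and Dctpp1 being the holders among the 7 with the largest changes. CACGTG was in 6 of 35 (17.1%), namely Atic, Dtymk, Impdh2, Nme1, Paics and Tyms, and in 12.6% of the 7700. Of the E2F-type words, neither TTTGGCG nor the word TTTCGCG was in any of the 35, and TTTCCCG was in Ppat and Prps2 (5.71%). At least one E2F-type word was in 12.2% of the 7700 genes. Only the exact words named were searched for, so a window without them may still hold another E2F-type form. These counts describe the letters in the window and no binding.

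Of the 5 genes of pyrimidine synthesis, 3 were higher (60%), 1 was lower (20%) and 1 did not pass. Over all genes tested, 20.9% were higher and 20.0% lower. Cad, which carries the first 3 activities on 1 polypeptide, was at 10.2, 9.70, 9.61 and 10.2 FPKM in Nrp-1+ iTreg and at 8.44, 6.98, 7.96 and 7.95 FPKM in Nrp-1- iTreg (log2 fold change 0.31, SE 0.05, adjusted p = 0.00213). Umps, which makes UMP from orotate, was at 14.1, 14.3, 12.7 and 12.9 FPKM against 10.3, 10.6, 11.3 and 10.6 FPKM (log2 fold change 0.31, SE 0.05, adjusted p = 0.0012). Neither gene's groups overlapped. Between these steps stands Dhodh, the mitochondrial dihydroorotate dehydrogenase, at 5.06 ± 0.368 against 5.17 ± 0.537 FPKM. Its groups overlapped and its log2 fold change was -0.02 (95% interval -0.19 to 0.14, adjusted p = 0.809), so that a difference of the size seen for Cad lay outside the interval.

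Ctps and Ctps2 both make CTP from UTP, and Ctps (CTP synthase 1) is the form that activated lymphocytes depend on. Ctps was at 10.5, 10.5, 11.0 and 11.1 FPKM in Nrp-1+ iTreg and at 7.99, 6.91, 8.56 and 7.34 FPKM in Nrp-1- iTreg, whereas Ctps2 was at 21.7, 21.5, 21.2 and 20.3 FPKM against 23.6, 22.8, 23.2 and 23.4 FPKM. Neither pair of groups overlapped, and the directions were opposite. The log2 fold change of Ctps was 0.44 (SE 0.06, adjusted p = 0.000617) and that of Ctps2 was -0.13 (SE 0.03, adjusted p = 0.00574), while Ctps2 stayed the more abundant of the pair in every library.

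In the purine ring pathway 2 of 6 genes were higher (33.3%) and none was lower, beside 20.9% and 20.0% of all genes tested. Paics, which joins 2 middle steps of the ring, was at 111, 103, 104 and 102 FPKM in Nrp-1+ iTreg and at 88.8, 88.6, 91.0 and 89.3 FPKM in Nrp-1- iTreg (log2 fold change 0.23, SE 0.03, adjusted p = 0.000385). Ppat, the amidotransferase of the committed step, was at 11.3, 12.0, 12.2 and 11.3 FPKM against 10.8, 10.4, 10.5 and 10.3 FPKM (log2 fold change 0.14, SE 0.03, adjusted p = 0.00955). The libraries separated by group for both genes, with a narrow gap for Ppat, whose call was lost under 1 of the 20 alternative settings. They are neighbours on chromosome 5: Ppat (76913249 to 76951578, minus strand) and Paics (76951302 to 76967509, plus strand) start head to head and share 277 bases in RefSeq GRCm38.p6, and without knowledge of strand in the counting, reads there could be given to either.

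The other 4 ring enzymes overlapped between the groups. Gart, a trifunctional enzyme, was at 22.2 ± 0.815 against 21.1 ± 1.40 FPKM (log2 fold change 0.07, 95% interval -0.04 to 0.18). Pfas, a glutamine-using step ahead of ring closure, was at 4.53 ± 0.170 against 4.23 ± 0.544 FPKM (0.09, -0.08 to 0.26). Adsl, used in both ring and AMP synthesis, was at 17.6 ± 0.471 against 17.2 ± 0.310 FPKM (0.03, -0.03 to 0.10), and Atic, which closes the ring to IMP, was at 39.7 ± 0.875 against 40.0 ± 1.40 FPKM (-0.01, -0.08 to 0.06). Intervals for Adsl and Atic were narrow and kept any difference on this scale to 0.10 or less in size, far under that of Rrm1.

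At the branch from IMP, the 2 forms of IMP dehydrogenase, which commit IMP to GMP, differed in direction. Impdh2, the form induced on lymphocyte activation, was at 126, 122, 122 and 124 FPKM in Nrp-1+ iTreg and at 86.9, 92.3, 94.6 and 91.1 FPKM in Nrp-1- iTreg. Impdh1 was at 43.7, 45.3, 45.6 and 45.5 FPKM against 48.2, 50.9, 48.5 and 47.8 FPKM. Neither set of libraries overlapped. The log2 fold change of Impdh2 was 0.43 (SE 0.03, adjusted p = 9.85e-06), and that of Impdh1 was -0.12 (SE 0.03, adjusted p = 0.00855). Gmps, the GMP synthetase that follows, was at 19.8 ± 1.32 against 19.5 ± 0.666 FPKM (log2 fold change 0.01, 95% interval -0.10 to 0.12), and Adss, which opens the AMP branch, at 58.0 ± 2.22 against 56.7 ± 1.30 FPKM (0.03, -0.04 to 0.10). Adssl1, the muscle form of Adss, was under the filter at 0.189 to 0.807 FPKM over the 8 libraries. Of the 4 branch genes tested, 1 was thus higher (25%), 1 was lower (25%) and 2 did not pass. These shares are near those of all genes tested, 20.9% higher and 20.0% lower.

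PRPP is the sugar phosphate that de novo and salvage synthesis share. Prps1, a PRPP synthetase, was at 46.9, 47.8, 47.1 and 48.8 FPKM in Nrp-1+ iTreg and at 39.6, 40.6, 40.5 and 41.2 FPKM in Nrp-1- iTreg, a log2 fold change of 0.23 (SE 0.02, adjusted p = 8.01e-05). Prps2, the second form, was at 40.8, 41.5, 39.3 and 40.3 FPKM against 39.2, 35.8, 39.2 and 38.4 FPKM. The groups of Prps2 did not overlap either, but by a margin of under 0.1 FPKM, and it did not pass the test (log2 fold change 0.08, 95% interval 0.01 to 0.16, adjusted p = 0.0761).

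Folate enzymes carry the 1-carbon units for purines and thymidylate. Shmt1, the cytosolic serine hydroxymethyltransferase, was at 3.32, 4.22, 3.48 and 3.82 FPKM in Nrp-1+ iTreg and at 2.67, 2.85, 3.13 and 2.86 FPKM in Nrp-1- iTreg (log2 fold change 0.28, SE 0.07, adjusted p = 0.013). Mthfd1, the trifunctional cytosolic enzyme, was at 10.4, 11.6, 9.78 and 10.4 FPKM against 9.19, 9.40, 9.77 and 9.27 FPKM (log2 fold change 0.15, SE 0.05, adjusted p = 0.0425). Both sets of libraries separated by group, that of Mthfd1 only just. The call for Mthfd1 was lost when any library but Nrp-1+ iTreg replicate 3 was left out, with adjusted p from 0.0509 to 0.0929, and under 13 of the 20 alternative settings in all.

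Of the 4 nucleotide kinases, 1 was lower (25%) and 3 did not pass, where 20.0% of all genes tested were lower. Nme2, a nucleoside diphosphate kinase, had the highest level of the 38 genes, at 461, 429, 429.5 and 443 FPKM in Nrp-1+ iTreg and 398, 410.3, 447 and 485 FPKM in Nrp-1- iTreg, and the groups overlapped fully (log2 fold change 0.02, 95% interval -0.12 to 0.16). Nme1, its neighbour and close paralogue on chromosome 11, was at 61.4 ± 1.68 against 58.0 ± 4.05 FPKM (0.08, -0.03 to 0.19), and the authors' counting could split reads between such paralogues. Cmpk1, the UMP and CMP kinase, was at 55.1 ± 3.84 against 49.9 ± 1.45 FPKM (0.14, 0.03 to 0.25, adjusted p = 0.0532). All 3 intervals reached down to 0.03 or less, and Cmpk1 passed under 5 of the 20 alternative settings. Guk1, the guanylate kinase, was at 33.9, 32.3, 33.3 and 31.5 FPKM against 32.9, 36.4, 38.0 and 39.1 FPKM, overlapping through replicate 1 of Nrp-1- iTreg. Its log2 fold change was -0.15 (SE 0.05, adjusted p = 0.0449), and the call was lost without any library but Nrp-1- iTreg replicate 1, with adjusted p from 0.0552 to 0.106.

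In purine salvage 2 of 3 genes were higher (66.7%), beside 20.9% of all genes tested. Pnp, purine nucleoside phosphorylase, whose absence is toxic to T cells, was at 16.9, 16.3, 18.2 and 18.8 FPKM in Nrp-1+ iTreg and at 12.7, 12.9, 13.3 and 13.0 FPKM in Nrp-1- iTreg (log2 fold change 0.41, SE 0.04, adjusted p = 0.000182). Its near-identical neighbour Pnp2 was at 0 to 0.0497 FPKM over the 8 libraries. Hprt, which recovers hypoxanthine and guanine, was at 138, 136, 137 and 131 FPKM against 110.4, 107, 121 and 113 FPKM (log2 fold change 0.26, SE 0.04, adjusted p = 0.000871). Both genes were higher in every Nrp-1+ iTreg library, and the call for Hprt was lost under 1 of the 20 alternative settings. Aprt, which recovers adenine, was at 59.8, 63.2, 63.7 and 62.7 FPKM against 62.9, 67.6, 68.0 and 72.4 FPKM and did not pass (log2 fold change -0.12, 95% interval -0.21 to -0.02, adjusted p = 0.0563), although it passed under 6 of the 20 alternative settings.

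For 8 pairs of genes that do the same or a joint step, the ratio of FPKM was taken within each library, where any scaling of the library cancels. The 2 subunits Rrm1 and Rrm2 kept the same ratio, 0.464 ± 0.0178 in Nrp-1+ iTreg and 0.464 ± 0.00691 in Nrp-1- iTreg, although both levels differed between the groups. By contrast Rrm2 was 33.4 ± 0.634 times the level of Rrm2b in Nrp-1+ iTreg but 15.1 ± 0.950 times that level in Nrp-1- iTreg. Tk1 was 3.46 ± 0.151 times the level of Tk2 against 1.40 ± 0.113 times. The ratio thus shifted towards the S phase form in both pairs.

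Impdh2 stood at 2.74 ± 0.102 times Impdh1 in Nrp-1+ iTreg and at 1.87 ± 0.0721 times in Nrp-1- iTreg. Ctps was 0.509 ± 0.0309 of Ctps2 against 0.331 ± 0.0291, and Prps1 was 1.18 ± 0.0325 times Prps2 against 1.06 ± 0.0534 times. The groups did not overlap for these 5 pairs, with log2 differences of 1.14 (Rrm2 to Rrm2b), 1.31 (Tk1 to Tk2), 0.56 (Impdh2 to Impdh1), 0.62 (Ctps to Ctps2) and 0.15 (Prps1 to Prps2). Each gave 0.029 in the exact two-sided permutation test, and 0.0457 after Benjamini-Hochberg adjustment over the 8 pairs. For Tk1 to Tk2, Impdh2 to Impdh1 and Ctps to Ctps2, both genes had already separated, in opposite directions. Their ratios had to separate too, so for these pairs the test adds nothing to the single-gene results. All 5 calls were lost when any Nrp-1+ iTreg library was left out, with adjusted p of 0.0571 to 0.0914 in the exact permutation test. Nme1 to Nme2 (0.139 ± 0.00226 against 0.133 ± 0.00374, exact permutation p = 0.0571, adjusted 0.0762) did not pass. Adss to Adssl1 (exact permutation p = 0.314, adjusted 0.359) rests on values of Adssl1 near 0.

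**Figure D4:**
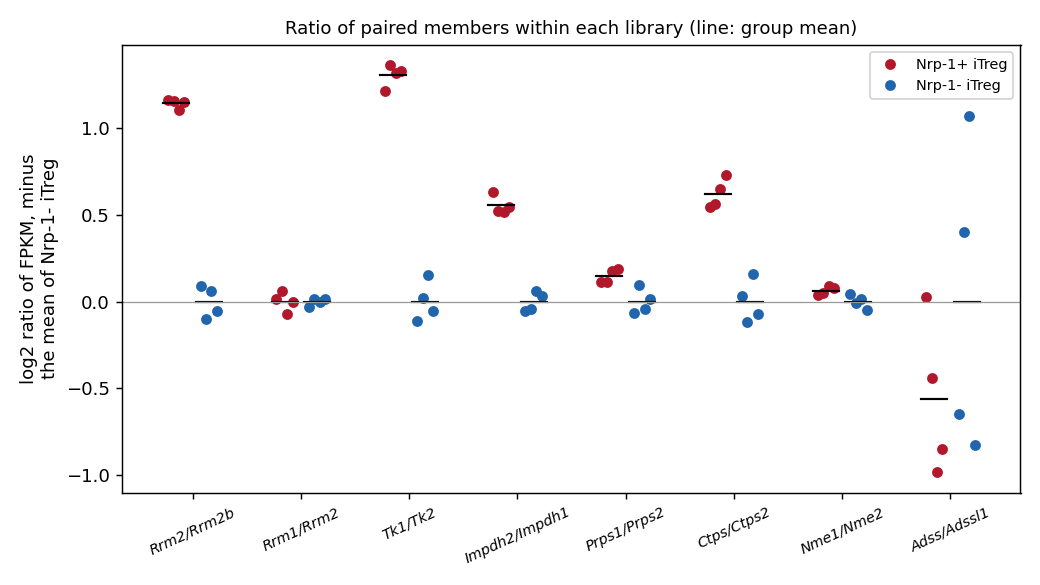
Log2 ratio of FPKM of 8 gene pairs within each library, minus the mean of Nrp-1- iTreg (vertical axis), for 4 Nrp-1+ (red) and 4 Nrp-1- (blue) iTreg libraries; lines are group means. Rrm2/Rrm2b and Tk1/Tk2 lie 1.14 and 1.31 above Nrp-1- iTreg, Rrm1/Rrm2 lies at 0, and the wide spread of Adss/Adssl1 goes with Adssl1 values under 1 FPKM.

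Ordered by mean level over the 8 libraries, Nme2 (438 FPKM), Rrm2 (159), Hprt (124), Impdh2 (107) and Paics (97.4) led the 38 genes. At the other end stood Pfas (4.38 FPKM), Shmt1 (3.29), Dctd (0.896) and Adssl1 (0.526). High level and large difference did not go together at the top, since Nme2 overlapped between the groups and Rrm2 was 97.1% higher. The level of Rrm2 in Nrp-1- iTreg (107 ± 1.61 FPKM) still exceeded that of Rrm1 in Nrp-1+ iTreg (97.8 ± 2.33 FPKM).

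A further list of 62 nucleotide genes outside the 38, for folate, salvage, kinases, breakdown and transport, gave 60 in the table and 45 tested. Of these, 12 were higher (26.7%), 5 were lower (11.1%) and 28 did not pass, with a median log2 fold change of 0.022, beside 20.9% higher, 20.0% lower and a median of -0.016 over all genes tested. Among the higher genes were Slc29a1, a nucleoside transporter of the plasma membrane (40.1 ± 2.02 against 28.9 ± 1.19 FPKM, 0.46), and the mitochondrial folate enzymes Mthfd2 (79.2 ± 1.52 against 58.0 ± 1.60 FPKM, 0.44) and Shmt2 (31.3 ± 1.84 against 23.6 ± 0.468 FPKM, 0.39).

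Among the lower genes of that list, Samhd1, which hydrolyses dNTPs and so works against ribonucleotide reductase, was at 292, 289, 286 and 285 FPKM in Nrp-1+ iTreg and at 353, 354, 351 and 357 FPKM in Nrp-1- iTreg. Every Nrp-1+ iTreg library was lower by a wide margin relative to the spread (log2 fold change -0.30, SE 0.02, adjusted p = 5.95e-06), and the call was lost under quantile normalization alone (adjusted p = 0.0501). Dguok, the mitochondrial deoxyguanosine kinase, was at 37.6 ± 0.666 against 42.8 ± 1.36 FPKM (-0.18, adjusted p = 0.00108), in the direction of its mitochondrial counterpart Tk2. The lowest was Ak4, a mitochondrial adenylate kinase (4.86 ± 0.159 against 6.61 ± 0.275 FPKM, -0.38, adjusted p = 0.000139).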

How the data were processed

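RNA sequencing covered 8 libraries, 4 of Nrp-1+ iTreg and 4 of Nrp-1- iTreg, which the labels call biological replicates; whether same-numbered libraries shared a culture is not stated. Reads were handled by the authors in the CLC Genomics Workbench; the deposited FPKM, 1 value for each gene symbol in each library, were computed by Cufflinks, and the submitters' processing notes name GRCm38 and mm10. Aligner settings and annotation are not given in the sources used here, and the labels and the methods name different library kits, so that strandedness is unsure. FPKM is no count: read numbers are unknown, and no count model was used.

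No value was altered. Genes averaging 1 FPKM or more over the libraries (10467 of 23361; 7072 were 0 in every library) were fitted on log2(FPKM + 1), a scale that understates the change of low genes, with limma 3.58.1 in R 4.3.3 (lmFit, eBayes with an intensity trend). P-values were Benjamini-Hochberg adjusted over all genes tested and called under 0.05. Single values and within-library ratios were compared by exact two-sided permutation over 70 regroupings (Python 3.11.15, numpy 2.4.6). All 38 genes are named; of the other nucleotide genes, the 4 highest and 4 lowest by log2 fold change among those called, apart from 2 that are not reported here. The members and lists were chosen with earlier results of these data known. In all, 20 alternatives were tried: pseudocounts of 0.1 and 0.5, no filter or a mean of at least 5, size factors, quantile normalization, a replicate block, no trend, array weights, no short RNA genes, GC content and transcript length corrected for (GENCODE M21) with and without the block, and each of the 8 libraries left out. The fit was tested on simulated data. Promoter sequence and gene positions are from RefSeq GRCm38.p6. The nTreg of the study were not analysed here.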

Additional observations from a re-analysis of the deposited data

Results flagged for a closer look

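In groups of 4 libraries, 3 values among 92 groups tested (the 38 genes and 8 ratios in each of the 2 cell groups) stood further from the others than Dixon's 95% critical value allows, where chance gives about 4.6. Adss in Nrp-1+ iTreg replicate 4 was 54.7 FPKM, and the other 3 libraries of that group were at 58.9 to 59.3 FPKM. Rrm2b in Nrp-1+ iTreg replicate 3 was 6.74 FPKM, beside 6.15 to 6.23 FPKM in the others. Without that library the log2 fold change of Rrm2b was -0.17 (adjusted p = 0.0187 by limma). Tk1 in Nrp-1- iTreg replicate 3 was 29.8 FPKM, beside 27.9 to 28.0 FPKM in the others.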

How the results depend on the processing

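Of the 19 higher nucleotide synthesis genes, 16 passed under every alternative that tested them. Ppat (adjusted p = 0.0847) and Hprt (0.0675) were lost with the GC and length correction plus the replicate block, and Mthfd1 under 13 of 20 alternatives. Of the 5 lower genes, Impdh1, Ctps2 and Tk2 passed under every alternative, Rrm2b was lost in 7 and Guk1 in 11. Cmpk1 passed in 5 and Aprt in 6 alternatives. The count of higher genes was 18 to 19 with a library left out, and that of lower genes 3 to 6. Without a filter it was 3. All genes called with a library left out numbered 1953 to 2046 higher and 1770 to 1912 lower.

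The GC and length correction gave a median of 0.109 for the 36 genes, with or without the block, and -0.012 for the other nucleotide genes, while the median of all genes moved from -0.016 to -0.046. Of the other nucleotide genes, 8 were then lower (3 to 5 with a library left out). The correction moved the share of higher calls among all calls from 51.1% (2189 higher, 2093 lower) to 40.0% (1838 higher, 2754 lower), or 41.9% with the block. The cause was not tested.

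Same-numbered libraries did not deviate together in every pair (correlations of -0.54 to 0.010 over all tested genes, -0.11 to -0.038 without short RNA genes, -0.42 to 0.29 over the nucleotide synthesis genes), so the numbers were not taken as pairs. With the replicate block, 18 of the 19 higher and 3 of the 5 lower genes passed (Mthfd1, Rrm2b with an adjusted p of 0.0777 by limma, and Guk1 did not), beside 1931 higher and 1675 lower of all genes. The paired log2 ratio differences stayed at 1.14 (Rrm2/Rrm2b), 1.31 (Tk1/Tk2), 0.56 (Impdh2/Impdh1), 0.15 (Prps1/Prps2) and 0.62 (Ctps/Ctps2), and the exact sign-flip test over 4 pairs cannot go below 0.125. With a library left out they were 1.11 to 1.18, 1.27 to 1.36, 0.53 to 0.58, 0.13 to 0.18 and 0.58 to 0.68, with adjusted p of 0.0381 to 0.0914 where 3 libraries faced 4, and all 5 missed the threshold without any 1 of the Nrp-1+ iTreg libraries. That of Nme1/Nme2 was 0.046 to 0.078 (adjusted p from 0.0381 to 0.152). All these adjusted p depend on how many pairs reach the smallest p that 3 libraries against 4 allow.

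Only differences near 0 changed sign. Rrm1/Rrm2 (0.000145) became -0.00062 with a pseudocount of 0.1, -0.0074 with a pseudocount of 1 and -0.020 to 0.024 with a library left out. Gmps became -0.0026 under quantile normalization and -0.0081 with the GC and length correction, Adss -0.012 and Nme2 -0.012 with that correction. With a library left out, the sign changed without Nrp-1+ iTreg replicate 1 or Nrp-1- iTreg replicate 2 for Gmps (range -0.021 to 0.049), without Nrp-1- iTreg replicate 1 or 2 for Nme2 (-0.019 to 0.076), without Nrp-1+ iTreg replicate 2 or Nrp-1- iTreg replicate 4 for Dhodh (-0.067 to 0.029) and without Nrp-1- iTreg replicate 3 for Atic (-0.031 to 0.0032). Of the named genes outside the 38, Samhd1 missed the threshold under quantile normalization (adjusted p = 0.0501 by limma). Sequencing depth in reads is unknown, which leaves the precision of genes near 1 FPKM, such as Dctd, unstated.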
